A study of Rattus norvegicus with 12 samples.

Results

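The secretory machinery of 2 rat insulinoma lines was compared through 97 probe sets of the Affymetrix Rat 230 2.0 array, out of 31099, that carry a single gene symbol of a SNARE or SNARE partner family. The symbols taken were those of the Syt, Sytl, Vamp, Stx, Stxbp, Rab3a to Rab3d, Rab27, Cplx, Unc13, Cadps and Rims families together with Snap23, Snap25, Snap29, Nsf and Napa, whatever their signals. These probe sets stand for 66 genes of the 14218 with a single symbol: 42 genes have 1 probe set, 17 have 2 and 7 have 3. CRI-G1-RS (rotenone sensitive) is a subclone that arose from CRI-G1-RR, the rotenone resistant parent, known before as CRI-G1, an insulin-secreting line from a rat islet tumour. Rotenone blocks complex I of the respiratory chain, and the study looked for transcripts that separate a line vulnerable to mitochondrial and oxidative stress from a hardier one. RNA came from 6 samples of each line, all untreated and grown in DMEM rich in glucose with 10% FBS, and each sample was hybridised to 1 array. The sensitive line is a single clone, so a difference between the lines may belong to that clone, and whole cultures were lysed, so that fewer cells of a type and less RNA per cell cannot be told apart.

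Insulin granules fuse with the plasma membrane when a SNARE of the vesicle, typically Vamp2, coils together with Stx1a and Snap25 of the plasma membrane. Rab3 and Rab27 GTPases carry granules to the membrane and tether them there, Unc13 and Cadps proteins prime them, and complexins and synaptotagmins couple the last step to calcium. After fusion, the ATPase Nsf and its adaptor Napa (alpha-SNAP) take the spent complexes apart, while other syntaxins and Vamps serve the Golgi, endosomes and lysosomes. Beta cells share most of these parts with neurons.

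The values are linear scanner signals that the authors had scaled to a common level, with a mean after 2% trimming between 250.068 and 250.075 on every array. Arrays correlated with the others of their own line at a mean r of 0.980 to 0.985, CRI-G1-RS replicate 2 being the lowest. A log2 fold change below is CRI-G1-RS minus CRI-G1-RR on the log2(signal + 16) scale after quantile normalization, which understates the changes of dim genes. A gene was called at a limma adjusted p under 0.05 over all probe sets, and where it has several probe sets it is given by the brightest. Of 12 islet endocrine marker genes measured, 10 averaged at least 50 in signal. In CRI-G1-RS cells 6 were called higher and 0 lower, where 21% and 18.3% of all genes were. Those called were Ins2, Pdx1, Nkx6-1, Chga, Scg2 and Pcsk2. The bright Ins1, Gcg, Chgb and Iapp were not called, nor were the dim Sst and Ppy. The summed signal of the 12 ran from 27451 to 33527 on the CRI-G1-RS arrays and from 26051 to 30560 on the CRI-G1-RR arrays. Summed signals of acinar, leukocyte and endothelial markers overlapped between the lines, with 0 members called. Fibroblast markers summed to between 307 and 390 on the CRI-G1-RS arrays and to between 230 and 299.5 on the CRI-G1-RR arrays, with 1 of 6 (Pdgfra) called higher, and the part of these markers in the results below was not tested.

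Exocytosis genes moved in both directions. Of the 66 genes, 17 were called higher in CRI-G1-RS cells and 13 lower, which is 45.5% in all, beside 39.2% of all genes. The share called higher was 25.8% among the members and 21% among all genes, and the share called lower was 19.7% against 18.3%. By probe set, 24 were higher and 15 lower, 40.2% of the members beside 31.7% of all probe sets on the array. The share higher was 24.7% of the members beside 16.3% of all, and the share lower 15.5% beside 15.4%. Among probe sets averaging at least 50 in signal, 37 of 59 members were called, which is 62.7% beside a background of 46.4%. Higher were 23 (39% of the members, beside 24.1% of all) and lower 14 (23.7%, beside 22.3%). Among the dimmer ones 2 of 38 (5.26%) were called, beside 10.1%. By gene at that brightness, 29 of 45 members were called, which is 64.4% beside 50.1%. Of these genes 16 were higher (35.6% of the members, beside 26.7% of all) and 13 lower (28.9%, beside 23.4%). The median log2 fold change was 0.06 over the member genes and 0.02 over all genes.

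Few of these changes were large. Only 2 of the 97 probe sets (2.06%) were at least 2-fold higher, those of Rab3c and Syt12, where 1.84% of all probe sets passed that limit. At least 2-fold lower were 4 (4.12%), the 2 probe sets of Stxbp6 and those of Vamp7 and Stx7, where the share over the array was 2.12%. The 6 CRI-G1-RS arrays all lay above the 6 CRI-G1-RR arrays for 15 member probe sets (15.5%, beside 10.6% of all probe sets). They all lay below for 9 (9.28%, beside 9.76% of all). For each of these, a two-sided exact permutation test of 6 arrays against 6 gives its smallest possible p, 0.00216. Replicates of the member genes that averaged at least 50 spread by a median coefficient of variation of 9.94% in CRI-G1-RS cells and 10.7% in CRI-G1-RR cells, over 45 genes, where all genes of that brightness spread by 9.91% and 9.92%.

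**Figure D1:**
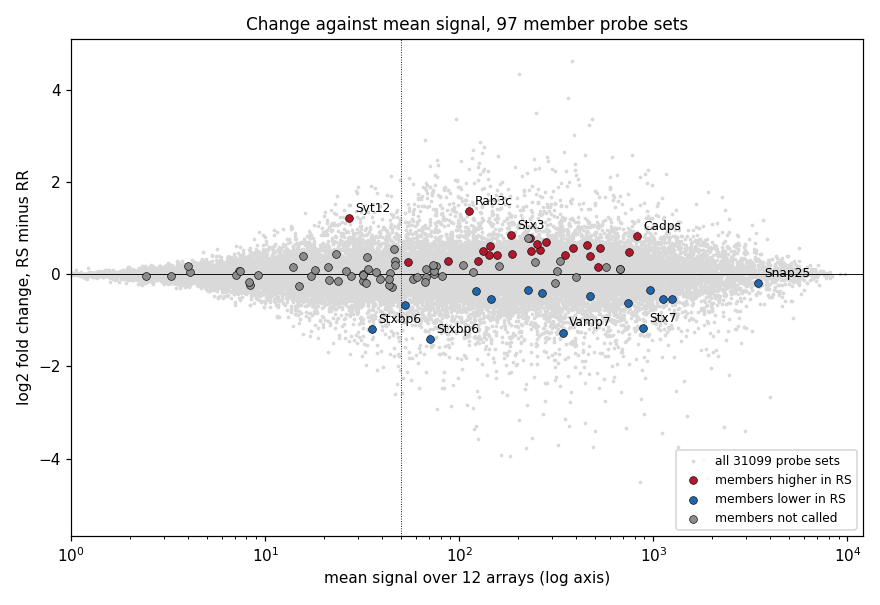
Each point is a probe set, with its mean signal over the 12 arrays on a log axis and its log2 fold change, CRI-G1-RS minus CRI-G1-RR; the dotted line marks a signal of 50. The 97 members (red higher, blue lower, grey not called) lie within the cloud of all 31099 probe sets (pale grey), and the called members are nearly all right of the dotted line.

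Promoters are shown for the called genes of largest change that have a window, Stxbp6 and Stx7 lower and Rab3c and Stx3 higher. They are shown because the array reads transcript levels and these windows hold the start sites of those transcripts. RefSeq windows on GRCr8 of 250 bases before to 50 after the start of transcription were found for 55 of the 66 genes, and Vamp7 and Syt12 are among the genes without one here. The sequence for Stxbp6, which fell by more than 2-fold, is chr6:67884289-67884588 on the minus strand, and that for Stx7, which also fell by more than 2-fold, is chr1:23056416-23056715 on the minus strand. The sequence for Rab3c, which rose by more than 2-fold, is chr2:43575894-43576193 on the minus strand, and that for Stx3, the plasma membrane syntaxin called higher, is chr1:218110417-218110716 on the minus strand. Capitals mark a GC box, the letters GGGCGG on either strand, which the transcription factor Sp1 is known to bind.
Stxbp6: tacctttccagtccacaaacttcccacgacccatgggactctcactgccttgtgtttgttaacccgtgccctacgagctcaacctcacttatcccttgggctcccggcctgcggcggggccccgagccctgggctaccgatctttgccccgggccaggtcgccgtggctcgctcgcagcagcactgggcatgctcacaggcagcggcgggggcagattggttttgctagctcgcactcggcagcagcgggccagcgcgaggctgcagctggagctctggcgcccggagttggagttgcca
Stx7: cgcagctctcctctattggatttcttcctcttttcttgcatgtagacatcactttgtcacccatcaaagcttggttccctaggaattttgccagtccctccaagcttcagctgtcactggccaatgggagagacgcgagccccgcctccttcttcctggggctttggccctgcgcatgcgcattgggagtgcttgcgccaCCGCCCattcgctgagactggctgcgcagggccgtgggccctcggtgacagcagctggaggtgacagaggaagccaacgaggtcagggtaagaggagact
Rab3c: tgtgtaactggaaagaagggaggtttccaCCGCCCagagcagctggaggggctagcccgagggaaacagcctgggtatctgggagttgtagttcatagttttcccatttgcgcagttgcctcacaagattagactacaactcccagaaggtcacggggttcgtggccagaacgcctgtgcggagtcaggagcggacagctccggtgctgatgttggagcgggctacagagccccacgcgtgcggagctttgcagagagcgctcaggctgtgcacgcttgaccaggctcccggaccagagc
Stx3: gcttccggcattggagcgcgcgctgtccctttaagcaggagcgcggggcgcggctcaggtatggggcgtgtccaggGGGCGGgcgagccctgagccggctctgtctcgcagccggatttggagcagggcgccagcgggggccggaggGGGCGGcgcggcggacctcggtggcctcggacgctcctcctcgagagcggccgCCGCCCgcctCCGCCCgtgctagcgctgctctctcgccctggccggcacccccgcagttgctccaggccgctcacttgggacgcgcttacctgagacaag
The Stxbp6 window held 0 GC boxes, those of Stx7 and Rab3c 1 each, and that of Stx3 held 4.

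GC boxes were common near the start of these genes. At least 1 was found in 37 of the 55 member windows, 67.3%, against 34.9% of 27457 RefSeq promoter windows of the same length. Those windows, here and below, include genes that the array does not measure, and shares over the measured genes alone were not computed. The box was in 11 of 13 windows of genes called higher, 5 of 10 of genes called lower and 21 of 32 of genes not called. The windows were also rich in G and C, with a median of 62.7% over the members (68.0% for genes called higher, 64.0% for those called lower and 58.7% for those not called) against 52.3% over all windows. The study concerned oxidative stress, so the core of the antioxidant response element (TGACNNNGC, either strand) was searched too, and it was in 12 member windows, 21.8%, against 12.2% of all: 4 of the genes called higher (Rab3c, Stx5, Stxbp5 and Nsf), 1 called lower (Napa) and 7 not called. Of the other letters searched on both strands, CAGCTG was in 32.7% of member windows against 15.1% of all, CACGTG in 14.5% against 6.65%, TGACGTCA in 3.64% against 1.91%, TGACTCA in 1.82% against 4.53%, TATAAA in 3.64% against 14.3%, and the RE1 segments TTCAGCACC and GGACAG in 1.82% and 29.1% against 0.379% and 21.8%. An AP-1 site (TGACTCA) followed by GC is also an antioxidant core, so those searches can count the same bases. A match gives the letters only and says nothing of whether a factor binds there.

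Among the plasma membrane SNAREs, of which 6 were measured, Stx3 and Snap29 were called higher, Stx4, Snap23 and Snap25 lower, and Stx1a was not called. Stx1a, the syntaxin of regulated exocytosis, had signals with a lowest, median and highest of 285, 312 and 394 in CRI-G1-RS cells and of 241, 321 and 338 in CRI-G1-RR cells. The arrays overlapped widely, and the log2 fold change of 0.07 (95% interval -0.15 to 0.29, limma adjusted p = 0.670) leaves room for small changes either way. Snap25, its partner in neurons and endocrine cells, ran over 2953, 3118 and 3469 in CRI-G1-RS cells and over 3355, 3786 and 3993 in CRI-G1-RR cells. It was lower by a small amount (log2 fold change -0.19, standard error 0.06, limma adjusted p = 0.0222), and CRI-G1-RR replicate 3 fell among the CRI-G1-RS arrays.

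Stx3, a syntaxin best known from the apical membrane of epithelia and from secretory granules, showed the largest rise of this group. Its signals were 175, 249 and 297 in CRI-G1-RS cells and 108, 119.9 and 154 in CRI-G1-RR cells, without overlap, and its log2 fold change was 0.85 (standard error 0.11, limma adjusted p = 7.65e-05). A second, dim Stx3 probe set was not called (0.15, limma adjusted p = 0.749). Stx4, a widely expressed plasma membrane syntaxin also used in insulin secretion, moved the other way, with means of 919 ± 70.1 in CRI-G1-RS cells and 1335 ± 81.0 in CRI-G1-RR cells (SD, n = 6 each) and a log2 fold change of -0.53. Snap23, the broadly expressed relative of Snap25, averaged 395 ± 39.6 in CRI-G1-RS cells and 545 ± 25.9 in CRI-G1-RR cells (SD, n = 6 each), and both of its probe sets were called lower (-0.46 and -0.40). Snap29, which takes part in fusion of autophagosomes and other compartments, changed least among the genes called higher, with 0.17, and its 2 dimmer probe sets were not called.

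**Figure D2:**
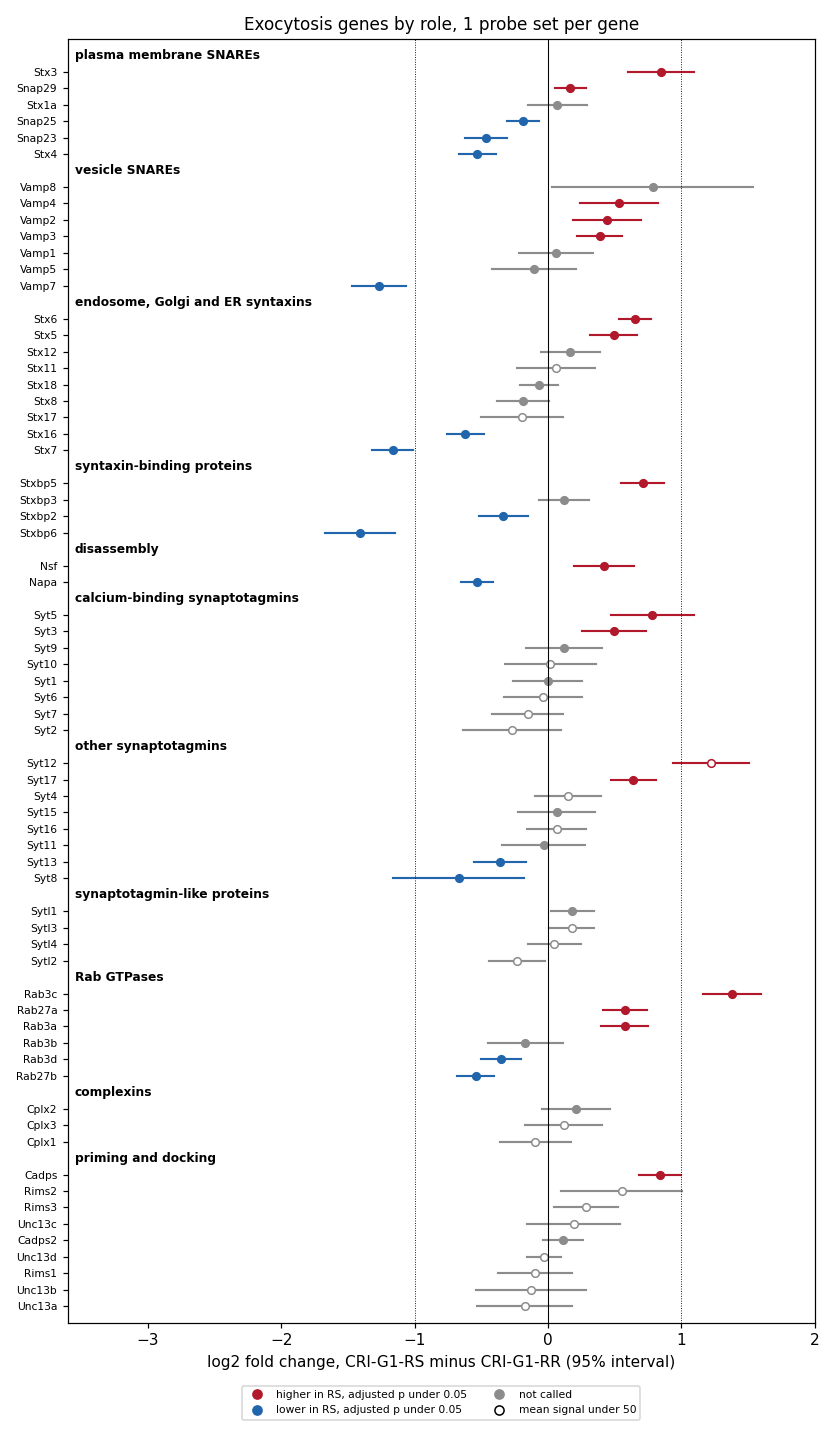
The log2 fold change of each of the 66 genes, CRI-G1-RS minus CRI-G1-RR, with its 95% interval, in groups by role; red is higher, blue lower, grey not called at a limma adjusted p under 0.05, and open symbols have a mean signal under 50. Most groups hold called genes on both sides of 0, from Stxbp6 at -1.41 to Rab3c at 1.38, and the dotted lines mark a 2-fold change.

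The vesicle SNAREs had the highest median log2 fold change of the groups (0.39 over 7 genes), with Vamp2, Vamp3 and Vamp4 called higher, Vamp7 lower, and Vamp1, Vamp5 and Vamp8 not called. Vamp2, the principal granule SNARE of beta cells, had signals of 187, 202 and 325 in CRI-G1-RS cells and of 130.0, 159 and 169.9 in CRI-G1-RR cells. The lines did not overlap, and the log2 fold change was 0.44 (standard error 0.12, limma adjusted p = 0.00998). The highest CRI-G1-RS value came from replicate 2, far from the other 5 arrays, and without it the log2 fold change was 0.33 (limma adjusted p = 0.00176). A dim second probe set of Vamp2 was not called (-0.14, limma adjusted p = 0.482).

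Vamp3 (cellubrevin), a close relative used in recycling endosomes, averaged 536 ± 35.5 in CRI-G1-RS cells and 405 ± 43.3 in CRI-G1-RR cells (SD, n = 6 each; log2 fold change 0.39). Vamp4, which works at the trans-Golgi network and on immature granules, was higher by both of its probe sets (0.53 and 0.42). Vamp7, a SNARE of late endosomes and lysosomes, fell to 167, 187 and 236 (lowest, median and highest) in CRI-G1-RS cells, against 413, 493 and 545 in CRI-G1-RR cells. No array of one line reached the other, and the log2 fold change was -1.27 (standard error 0.09, limma adjusted p = 4.29e-07).

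Vamp8 (endobrevin), a SNARE of late endosomes and of granules in several secretory cells, is described because its values stood out once seen. Its signals were 226, 283 and 322 in CRI-G1-RS cells and 34.8, 185 and 311 in CRI-G1-RR cells. The 6 CRI-G1-RR arrays spread further than those of any other member gene averaging at least 50, in either line, (coefficient of variation 52.4%), from 34.8 in replicate 5 to 311 in replicate 3. Its log2 fold change of 0.79 (95% interval 0.03 to 1.54) did not pass (limma adjusted p = 0.111), without CRI-G1-RR replicate 3 it did (0.99, limma adjusted p = 0.0410), and without CRI-G1-RR replicate 5 it shrank to 0.44 (limma adjusted p = 0.0818). Vamp1 was not called by its brightest probe set (0.06) and called higher by another (0.29), and Vamp5 was not called by any of 3.

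The syntaxins of endosomes, Golgi and ER, with 9 genes measured, gave 2 called higher (Stx6 and Stx5), 2 lower (Stx7 and Stx16) and 5 not called, with a median log2 fold change of -0.07. Stx7, a syntaxin of late endosomes and lysosomes, had signals of 469, 546 and 576 in CRI-G1-RS cells, against 1097, 1246 and 1351 in CRI-G1-RR cells. Every CRI-G1-RS array was far below every CRI-G1-RR array (log2 fold change -1.16, standard error 0.07, limma adjusted p = 8.43e-08). Stx16, of the trans-Golgi network, had 544, 572 and 676 in CRI-G1-RS cells against 857, 898 and 945 in CRI-G1-RR cells, again without overlap (-0.62, standard error 0.06, limma adjusted p = 6.62e-06).

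Stx6, another syntaxin of the trans-Golgi network, ran the opposite way. Its signals were 286, 317 and 326 in CRI-G1-RS cells and 170.1, 193 and 205 in CRI-G1-RR cells, without overlap (log2 fold change 0.65, standard error 0.05, limma adjusted p = 1.21e-06), and a second probe set of very low signal was not called. Stx5, the syntaxin of transport between ER and Golgi, was higher by 0.49 and 0.50 in its 2 probe sets. Stx8 and Stx12 of endosomes and Stx18 of the ER had log2 fold changes of -0.19, 0.17 and -0.07 at signals where 95% intervals stayed within -0.38 and 0.39, and Stx11 and Stx17 were under a mean signal of 50.

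Partners within 2 known fusion complexes were set side by side. The trans-Golgi complex is built from Stx6, Stx16, Vti1a and Vamp4, and in CRI-G1-RS cells Stx6 and Vamp4 were called higher, Stx16 lower, and Vti1a had -0.36 (limma adjusted p = 0.0610). The late endosomal complex is built from Stx7, Stx8, Vti1b and either Vamp8 or Vamp7, and there Stx7 and Vamp7 were called lower, while Stx8 (-0.19, limma adjusted p = 0.145), Vti1b (-0.07, limma adjusted p = 0.768) and Vamp8 (0.79) were not called. These sets of partners were chosen after the values had been seen, differences between partners were not tested, and Vti1a and Vti1b lie outside the families chosen.

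The syntaxin-binding proteins comprised 4 genes, Stxbp5 called higher, Stxbp2 and Stxbp6 lower and Stxbp3 not called. Stxbp6 (amisyn) carries a SNARE-like coil that binds Stx1a and Snap25 and restrains exocytosis. Its signals were 22.4, 32.3 and 40.1 in CRI-G1-RS cells, against 88.2, 102 and 142 in CRI-G1-RR cells. The lines were wide apart at a low level of signal (log2 fold change -1.41, standard error 0.12, limma adjusted p = 1.42e-06). The second Stxbp6 probe set was dimmer still, with 5.73, 6.65 and 49.8 in CRI-G1-RS cells and 40.5, 49.8 and 73.0 in CRI-G1-RR cells. It was also called lower (-1.19, standard error 0.27, limma adjusted p = 0.00412), with overlapping arrays.

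Stxbp5 (tomosyn), another SNARE-like protein that holds back assembly of the fusion complex, went up. It had 324, 348 and 400.1 in CRI-G1-RS cells and 186, 203 and 235 in CRI-G1-RR cells, without overlap, for a log2 fold change of 0.71 (standard error 0.07, limma adjusted p = 8.12e-06). A dimmer probe set of the same gene was also higher (0.27) and another was not called (0.19). Stxbp2 and Stxbp3 are Sec1/Munc18 proteins that chaperone syntaxins, Stxbp3 being the usual partner of Stx4. The log2 fold change of Stxbp2 was -0.33 (limma adjusted p = 0.00813) and that of Stxbp3 was 0.12 (95% interval -0.07 to 0.31).

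Nsf and Napa, which act together to disassemble SNARE complexes, changed in opposite directions. Nsf averaged 403 ± 30.4 in CRI-G1-RS cells and 299 ± 49.8 in CRI-G1-RR cells (SD, n = 6 each; log2 fold change 0.42, standard error 0.10, limma adjusted p = 0.00731), and of its other probe sets 1 was called higher (0.29) and 1 was not called (0.30). Napa had the tightest replicates of the members in CRI-G1-RS cells, with 1015 ± 36.2 there and 1476 ± 78.4 in CRI-G1-RR cells (SD, n = 6 each). Its arrays did not overlap (log2 fold change -0.53, standard error 0.06, limma adjusted p = 8.75e-06).

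**Figure D3:**
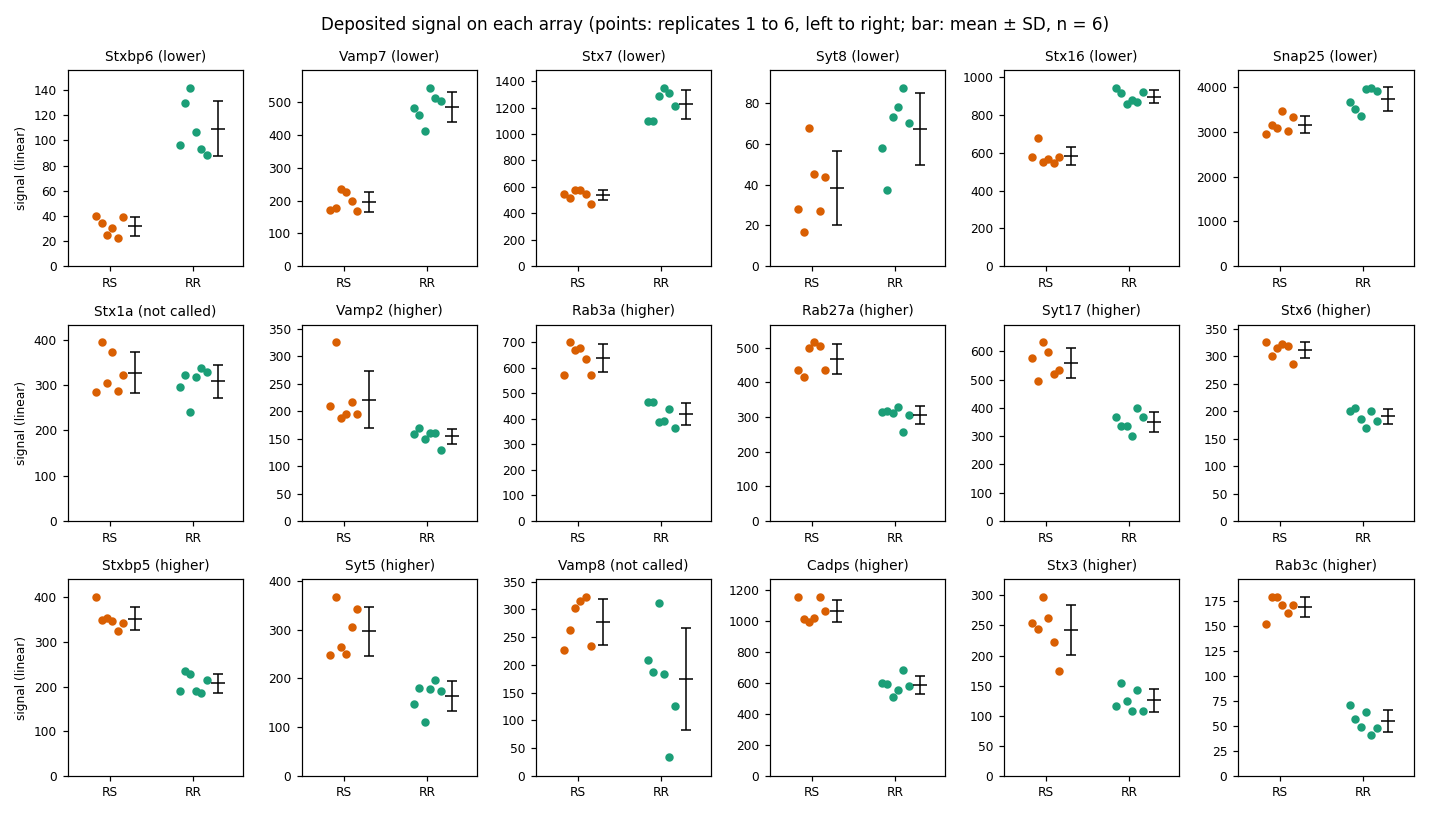
Deposited signal on each of 6 CRI-G1-RS arrays (orange, left) and 6 CRI-G1-RR arrays (green, right) for the 18 genes described by array, ordered by log2 fold change; bars are the mean ± SD. The lines do not overlap for Stxbp6, Vamp7, Stx7 and Stx16 on the low side or for Vamp2 and the genes after it other than Vamp8, and they overlap for Syt8, Snap25, Stx1a and Vamp8.

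Synaptotagmins that bind calcium, the sensors of regulated fusion, numbered 8, of which Syt5 and Syt3 were called higher and 0 lower. Syt5, a relative of Syt1 found on dense-core granules, had signals of 248, 285 and 366 in CRI-G1-RS cells and of 110.2, 177 and 197 in CRI-G1-RR cells. The lowest CRI-G1-RS array was above the highest CRI-G1-RR array, and the log2 fold change was 0.78 (standard error 0.14, limma adjusted p = 0.000839). Syt3, a synaptotagmin of high calcium affinity, averaged 278 ± 34.5 in CRI-G1-RS cells and 192 ± 32.0 in CRI-G1-RR cells (SD, n = 6 each; 0.50), and its other probe set, near the bottom of the range, was not called. Syt1, the sensor of fast release in neurons, was level (log2 fold change 0.00, 95% interval -0.26 to 0.26), and Syt9, which serves insulin release in rat beta cell lines, had 0.12 (95% interval -0.17 to 0.40). Syt7, a calcium sensor of beta cell granules, lay under a mean signal of 50 in all of its 3 probe sets, as did Syt2, Syt6 and Syt10, and 0 of these were called.

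Of 8 other synaptotagmins, which lack the full set of calcium-binding residues, Syt12 and Syt17 were called higher and Syt8 and Syt13 lower. Syt12, known from synaptic vesicles, was dim in CRI-G1-RS cells, with 37.4, 44.1 and 49.0, and close to the bottom of the range in CRI-G1-RR cells, with 4.08, 7.50 and 23.3. The lines did not overlap, and the log2 fold change of 1.22 (standard error 0.13, limma adjusted p = 1.10e-05) is shrunk by the added 16. Syt17 had 495, 556 and 631 in CRI-G1-RS cells and 300.4, 351 and 399 in CRI-G1-RR cells, without overlap (0.64, standard error 0.08, limma adjusted p = 3.00e-05), and a second probe set was higher as well (0.42).

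The call of Syt8 as lower rested on overlapping arrays. Its signals were 17.0, 35.8 and 67.8 in CRI-G1-RS cells and 37.4, 71.6 and 87.6 in CRI-G1-RR cells, and its log2 fold change of -0.67 (standard error 0.23, limma adjusted p = 0.0378) lost its call when any of 7 of the 12 arrays was left out (CRI-G1-RS replicate 1, 2 or 5, CRI-G1-RR replicate 3, 4, 5 or 6; limma adjusted p up to 0.0778). Syt13 was lower by a smaller step (-0.36, limma adjusted p = 0.00764). Syt4, Syt11, Syt15 and Syt16 were not called, with log2 fold changes from -0.03 to 0.15.

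The Rab GTPases of secretory granules split by member. Rab3c, Rab27a and Rab3a were called higher, Rab27b and Rab3d lower, and Rab3b was not called (-0.17, 95% interval -0.45 to 0.11). Rab3c had 152, 171 and 179 in CRI-G1-RS cells and 40.7, 52.9 and 71.0 in CRI-G1-RR cells. The gap between the lines exceeded the range within either, and the mean signal was 3.08 times as high in CRI-G1-RS cells (log2 fold change 1.38, standard error 0.10, limma adjusted p = 3.70e-07).

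Rab3a, the family member best known from synaptic vesicles and insulin granules, had 573, 652 and 700.3 in CRI-G1-RS cells against 364, 415 and 467 in CRI-G1-RR cells. It did not overlap between the lines (log2 fold change 0.57, standard error 0.08, limma adjusted p = 9.50e-05), and its second probe set was not called (0.28, limma adjusted p = 0.145). Rab27a, which docks granules through effectors such as granuphilin, had 415, 468 and 515 in CRI-G1-RS cells and 256, 313 and 329 in CRI-G1-RR cells. These did not overlap either (0.58, standard error 0.08, limma adjusted p = 5.68e-05), and of its other probe sets 1 was called higher (0.61) and 1, under a signal of 50, was not (0.37). Its closest relative Rab27b averaged 117 ± 11.9 in CRI-G1-RS cells and 175 ± 11.5 in CRI-G1-RR cells (SD, n = 6 each; -0.54, limma adjusted p = 2.27e-05), and a second probe set was not called (-0.05). Rab3d, found on granules of exocrine and endocrine cells, averaged 839 ± 44.5 in CRI-G1-RS cells and 1081 ± 106 in CRI-G1-RR cells (SD, n = 6 each; -0.35, limma adjusted p = 0.00136).

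Among the 9 priming and docking genes, only Cadps was called. Cadps (CAPS1), which primes dense-core granules, had signals of 991, 1038 and 1152 in CRI-G1-RS cells and of 507, 588 and 682 in CRI-G1-RR cells. The lines were clearly apart (log2 fold change 0.84, standard error 0.07, limma adjusted p = 1.55e-06), and a second probe set at very low signal was not called (0.39, limma adjusted p = 0.126). Its relative Cadps2 had 0.11 (95% interval -0.04 to 0.26). The other 7, Rims1 to Rims3 and Unc13a to Unc13d, all lay under a mean signal of 50, where log2 fold changes ran from -0.18 for Unc13a to 0.55 for Rims2 (limma adjusted p = 0.0625).

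Synaptotagmin-like proteins, the effectors of Rab27, gave 0 calls in 4 genes, with log2 fold changes from -0.23 (Sytl2) to 0.18 (Sytl1), and Sytl4 (granuphilin) had 0.05 at a low signal. At an unadjusted limma p under 0.05 stood 3 of these, Sytl1 (0.0268), Sytl2 (0.0305) and Sytl3 (0.0393). Sytl1 and Sytl3 leaned higher and Sytl2 lower, and Sytl2 and Sytl3 averaged only 43.3 and 3.98 in signal. Rims2 (0.0208), Rims3 (0.0244) and Vamp8 (0.0428), also not called, stood under that unadjusted limma limit too. The share of all genes at that unadjusted limit was not computed. The complexins, clamps of the fusion complex, also gave 0 calls in 3 genes, at an unadjusted limma p under 0.05 as well: Cplx2 had 0.21 (95% interval -0.05 to 0.47), and Cplx1 and Cplx3 were under a mean signal of 50. Over all roles, 20 of the 36 genes not called were under that signal. Of the 16 brighter ones, 15 had a 95% interval that stayed within a 2-fold change, the exception being Vamp8.

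Probe sets of the same gene never gave opposite calls. Of 24 genes with several, 5 were called alike by all (Snap23, Stx5, Stxbp6, Syt17 and Vamp4), 12 by some and 7 by none. In 11 of the 12 the brightest probe set was among those called, the exception being Vamp1. Probe sets can differ in brightness and in the transcript ends they read, so a dim probe set that was not called is no measure of a lack of change.

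**Figure D4:**
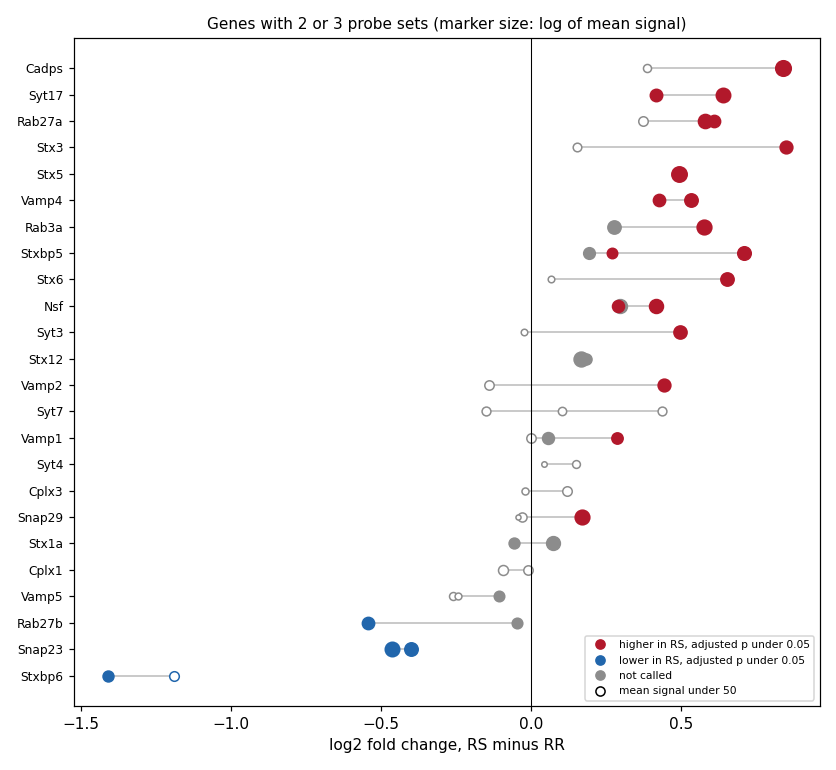
Log2 fold changes, CRI-G1-RS minus CRI-G1-RR, of every probe set of the 24 genes with 2 or 3; marker size follows the mean signal, colour the call, and open symbols lie under a signal of 50. The coloured symbols of a gene are all on the same side of 0, and within most genes the open symbols lie nearer to 0.

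Chromosomal surroundings were described for each gene as the median log2 fold change of the 50 closest genes whose signal averaged at least 100, by their order on GRCr8. For Rab3c (neighbours -0.25), Syt12 (-0.37), Stxbp6 (0.11) and Rab3d (0.39) the surrounding genes leaned to the other side of 0 from the gene itself. Around Vamp7 and Syt8 the neighbours were lower too, by medians of -0.41 and -0.46, and around Stx3 they were higher (0.36). For Stx7 (-0.05), Cadps (0.02), Syt5 (0.03), Stxbp5 (0.04), Stx6 (0.01), Rab27a (-0.02), Rab3a (-0.05) and Vamp2 (0.02) the neighbours were close to 0, and for Stx16, Snap25 and Syt17 their medians were -0.19, -0.18 and 0.19. Syt1, on chromosome 7, and Cplx1, on chromosome 14, were not called (0.00 and -0.09), and their neighbours had medians of -0.94 and 0.63. Both genes were dimmer than the limit of 100 set for neighbours, with mean signals of 74.2 and 43.3. Their 95% intervals were -0.26 to 0.26 and -0.36 to 0.17, and the part of low signal in these values was not tested. The part of the surroundings in any member's change was not tested.

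**Figure D5:**
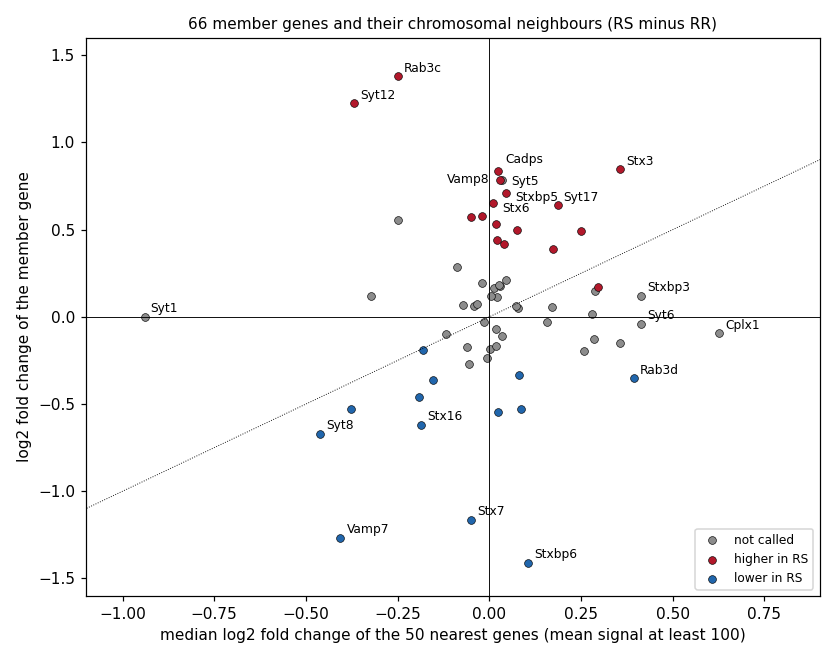
The log2 fold change of each of the 66 genes, CRI-G1-RS minus CRI-G1-RR, against the median of its 50 nearest genes; the dotted line marks equal values. Rab3c and Syt12 sit high above neighbours with medians under 0, Stxbp6 far below neighbours at 0.11, and Syt1 at 0 beside neighbours at -0.94.

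Genes of the same pathway outside these families showed a like mixture. Of 76 listed, 67 were measured, with 16 called higher and 14 lower, where 21% and 18.3% of all genes were, and a median log2 fold change of 0.03. By kind, the other SNAREs and their Sec1/Munc18 partners gave 5 higher and 4 lower of 17, effectors and regulators of Rab3 and Rab27 gave 4 and 2 of 13, C2 domain and active zone proteins 2 and 3 of 15, vesicle membrane proteins 4 and 4 of 14, and the exocyst 1 and 1 of 8. The largest falls were those of Syngr2, a tetraspan vesicle protein of non-neuronal cells (-1.26), Rab3ip, a nucleotide exchange factor that activates Rab8 (-1.16), and Rimbp2, which links Rims to calcium channels (-0.97). The largest rises were those of Ppfia3, a liprin scaffold of the active zone (0.75), Svop, a vesicle transporter-like protein (0.70), and Syngr3, the synaptogyrin of neurons (0.68). Syngr2 averaged 507 ± 62.4 in CRI-G1-RS cells and 1232 ± 93.1 in CRI-G1-RR cells, and Ppfia3 averaged 233 ± 27.6 in CRI-G1-RS cells and 131 ± 10.9 in CRI-G1-RR cells (SD, n = 6 each).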

How the data were processed

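Total RNA of 6 CRI-G1-RS and 6 CRI-G1-RR samples, taken from different passages, was amplified, labelled with biotin and hybridised to Affymetrix Rat 230 2.0 arrays. The deposited values are linear intensity signals per probe set and array, running from 0.0271 up to 11366.1, made with GCOS 1.4 by the submitters' processing notes. The Methods describe robust multi-chip averaging, but the deposited signals are linear, so the change planned for linear values was used. After quantile normalization, log2(signal + 16) was fitted in limma (version 3.58.1, R 4.3.3) on cell line alone, with Benjamini-Hochberg adjustment over 31099 probe sets. Means, SDs and signals by array are of the deposited values. P-values measure the spread between these samples, and the number of arrays limits their precision. Detection calls and scan times were not used here.

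Symbols come from the platform annotation, in which 20832 probe sets have 1 symbol, 436 have several and 9831 have none. Signals by array are given for Snap25, Stx1a and Vamp2 and for the 14 member genes of largest change among those called with a mean signal of at least 50 in a line. Syt12 falls outside this rule, and Syt12 and Vamp8 were given by array after their values were seen. The families, lists and tests were chosen with earlier results of these data known. Promoter windows are the RefSeq entries listed first for each gene. Alternatives were other scalings, another pseudocount, a filter on signal, leaving out probe sets of shared sequence, a replicate block, an intensity trend, array weights, the probe set of smallest p for a gene and leaving out each array.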

Additional observations from a re-analysis of the deposited data

Results flagged for a closer look

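For the 18 genes given by array other than Syt12, the highest and the lowest array of each line were set against the next one, 36 groups of 6 in all, and 4 groups held an array far from the others, by Dixon's 95% limit for the gap as a share of the group's whole range. Chance marks about 1 group in 20 in this way. In CRI-G1-RS cells, Vamp2 in replicate 2 was 325 with the next highest at 218 (gap 0.747 of the range), and Stx16 in the same replicate was 676 with the next at 579 (0.738). Stxbp5 in CRI-G1-RS replicate 1 was 400.1 with the next at 353 (0.645). In CRI-G1-RR cells, Rab27a in replicate 5 was 256 with the next lowest at 304 (0.680). Each of these genes kept its call when the array was left out.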

How the results depend on the processing

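Counts of members moved little. Over the scalings, the pseudocount, the filter on signal, the probe set choices, the replicate block, the intensity trend and the array weights, the number of member probe sets called higher lay between 22 and 27 and lower between 14 and 15, with member genes at 16 to 18 and 12 to 13. With only probe sets of a mean signal of at least 50 tested, 1 member probe set in place of 2 was at least 2-fold higher and 3 in place of 4 were at least 2-fold lower, since Syt12 and the second probe set of Stxbp6 lie under that signal. Leaving out each array in turn gave 21 to 26 probe sets higher and 14 to 16 lower, 2 at least 2-fold higher and 4 at least 2-fold lower each time, 16 to 19 genes higher and 12 to 13 lower, and 14 to 17 related genes higher and 12 to 15 lower, while the settings above gave 16 to 19 and 12 to 18 of these. No named gene changed direction under any setting. Syt8 also lost its call with a pseudocount of 1 (log2 fold change -0.91, limma adjusted p = 0.0516) and with array weights (-0.55, limma adjusted p = 0.0770).

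The labels tell that passages were collected in pairs but not which samples form a pair. Deviations of arrays with the same number correlated at r between -0.06 and 0.08, and 1 of 6 correlated best with its own number, so the numbers were not taken as pairs. With the number as a replicate block, 36 member probe sets were called, all among the 39 called without it, and Snap25 lost its call (log2 fold change -0.19, limma adjusted p = 0.0519). Dim probe sets limit the rest: 20 of the 36 genes not called were under a mean signal of 50.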
